A study of Mus musculus with 12 samples.

Results

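Complement and acute-phase genes were followed across cultures of MC38 tumours, a mouse colon carcinoma line grown in C57BL/6 albino mice. They are 9 genes chosen by symbol: C1ra, C1s, C3, C4b, Cfb, Serping1, Serpina3n, Serpina3g and Lcn2. All 9 were found among the 16399 symbols of the 5 deposited comparisons, C1s through its current symbol C1s1. Of the 9, 8 had values in all 5 tables, and Serping1 in 4. Pieces of dissociated tumour between 40 and 100 µm were kept in collagen in microfluidic chips for 6 days, so tumour cells and any host cells that survived were sequenced together. The 12 samples formed 4 groups of 3. IFNg cultures received 100 ng/mL of interferon-gamma protein. The aPD-1+CD8 cultures received 10 µg/mL of the PD-1 antibody RMP1-14 and 10 µg/mL of a CD8 antibody, the aPD-1 cultures 10 µg/mL of RMP1-14 alone, and the IgG cultures 10 µg/mL of the control antibody 2A3. No antibody is labelled for the IFNg wells. Whether the 3 samples of each group are separate animals or cultures is unlabelled too, so the p-values measure the spread between these samples only.

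Complement is a cascade of plasma proteases that tags cells and particles for removal. In its classical branch the protease C1r activates C1s, which cuts C4 and C2, and the products cut C3, the protein on which all branches meet. Factor B, the product of Cfb, supplies the protease that amplifies C3 cleavage in the alternative branch, and the serpin C1 inhibitor, the product of Serping1, blocks C1r and C1s. Acute-phase proteins are secreted in inflammation, mainly by the liver but also by tumour and stromal cells, under the control of IL-6 family cytokines with STAT3, of C/EBP factors, of NF-kB and of interferons. Serpina3n and Serpina3g belong to a mouse family of serine protease inhibitors related to human antichymotrypsin, and Lcn2 encodes lipocalin-2, which binds iron-loaded siderophores.

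Of the 9 genes 5 were highest in the aPD-1 cultures. Serpina3g, Cfb and Serping1 were highest in the IFNg cultures, and C1ra was alike in both. In aPD-1 v IgG, 5 members rose and 0 fell of 8 with an adjusted p (C1s1, C3, C4b, Serpina3n and Lcn2), where 18.5% of all genes tested changed, 8.50% upward and 10.0% downward. In aPD-1+CD8 v aPD-1 the members lower were 5 of 8 and those higher 0, where 14.8% of genes changed, 7.82% upward and 6.94% downward. In IFNg v IgG, 2 of 6 rose (C4b and Serpina3g) and 0 fell, where 4.10% of genes changed, 2.73% upward and 1.38% downward. In IFNg v aPD-1, 1 of 9 was higher (Serpina3g) and 2 lower (C3 and Serpina3n), where 15.5% of genes changed, 8.39% upward and 7.13% downward. In aPD-1+CD8 v IgG, DESeq2 called 0 of 8 members and 0.00% of all genes, and at an unadjusted p under 0.05 it had 0 members and 57 of 15304 genes. These calls are those of the authors' deposited DESeq2 tables at an adjusted p under 0.05. The comparisons share samples, so the aPD-1 cultures stand in both aPD-1 v IgG and aPD-1+CD8 v aPD-1, and the counts of those comparisons are not independent.

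The tables give no values of single libraries, but the mean of each group could be solved from the means of the 5 comparisons. Each deposited mean normalized count averages the libraries of both groups, and the tables differed from each other by a constant scale between 0.872 and 1, set from 660 unchanged genes. The level of a gene below is its mean normalized count per library, on the scale of the aPD-1 v IgG table, and has no SD. The difference between aPD-1 and IgG could be had in separate ways through the IFNg and the aPD-1+CD8 tables. For the 8 members with values in all 5 tables, these differed by at most 0.184% of the highest level of the gene. For Serping1 they could not be compared. A fold between levels is given where both are at least 2. In the authors' deposited tables the log2 fold changes are shrunken toward 0, so ratios of levels are larger than the deposited values for genes with few counts.

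**Figure D1:**
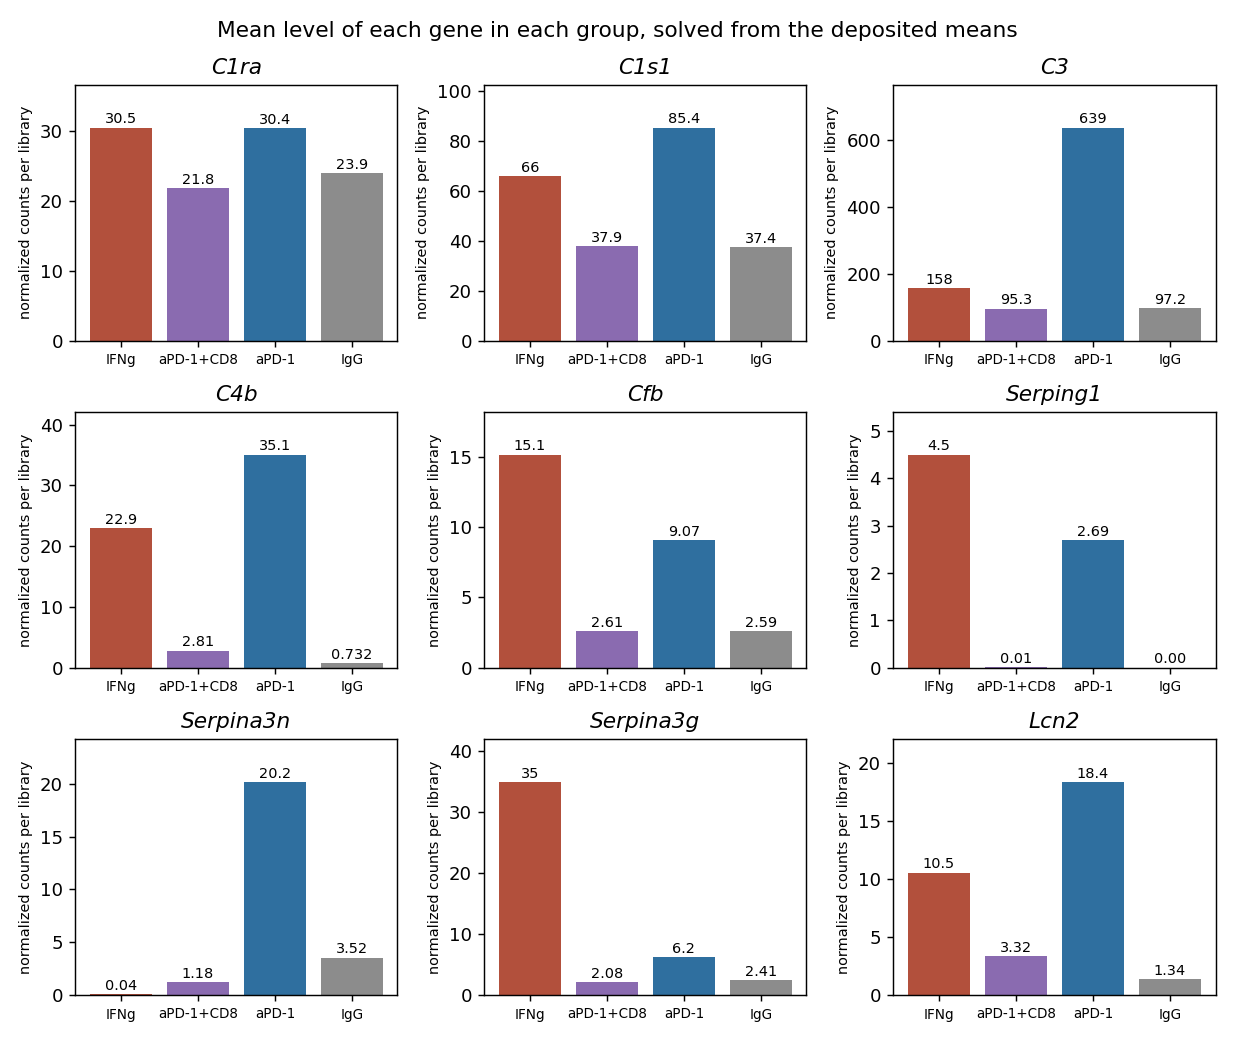
Bars show the mean level of each of the 9 genes in each group (vertical axis, normalized counts per library, from 0; horizontal axis, group), solved from the deposited means, with no error bars because no single libraries were at hand. C3 stands at 639 in aPD-1 cultures against 97.2 in IgG cultures, whereas Serpina3g is highest in IFNg cultures, at 35.0.

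The deposited files hold no sequences. To show the stretch in front of genes that were highest in aPD-1 cultures (C3, Lcn2 and Serpina3n) and in IFNg cultures (Serpina3g), the 250 bases before the annotated start are printed 5′ to 3′ on the gene's own strand from RefSeq (build GRCm38.p6, not the mm9 build of the authors' processing). Promoters matched 6 members: C1ra, C1s1, C3, Serpina3n, Serpina3g and Lcn2, and not C4b, Cfb or Serping1. C3 lies on chr17:57228137-57228386, minus strand, Lcn2 on chr2:32387740-32387989, minus strand, Serpina3n on chr12:104406458-104406707, plus strand, and Serpina3g on chr12:104235897-104236146, plus strand. Capitals mark matches, on either strand, to the motifs described after the sequences.
C3: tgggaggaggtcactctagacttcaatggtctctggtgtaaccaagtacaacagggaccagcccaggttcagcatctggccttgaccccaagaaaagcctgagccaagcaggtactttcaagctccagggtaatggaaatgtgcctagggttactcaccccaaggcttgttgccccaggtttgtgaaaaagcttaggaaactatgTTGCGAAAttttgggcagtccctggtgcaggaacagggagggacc
Lcn2: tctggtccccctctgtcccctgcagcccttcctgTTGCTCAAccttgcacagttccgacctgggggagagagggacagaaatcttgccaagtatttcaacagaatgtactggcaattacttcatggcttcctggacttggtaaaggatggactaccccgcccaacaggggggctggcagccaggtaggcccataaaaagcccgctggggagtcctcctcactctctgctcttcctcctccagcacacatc
Serpina3n: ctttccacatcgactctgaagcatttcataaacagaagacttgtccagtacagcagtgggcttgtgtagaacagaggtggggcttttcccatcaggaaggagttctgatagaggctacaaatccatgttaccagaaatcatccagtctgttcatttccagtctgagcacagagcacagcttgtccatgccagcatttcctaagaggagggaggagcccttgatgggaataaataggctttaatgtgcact
Serpina3g: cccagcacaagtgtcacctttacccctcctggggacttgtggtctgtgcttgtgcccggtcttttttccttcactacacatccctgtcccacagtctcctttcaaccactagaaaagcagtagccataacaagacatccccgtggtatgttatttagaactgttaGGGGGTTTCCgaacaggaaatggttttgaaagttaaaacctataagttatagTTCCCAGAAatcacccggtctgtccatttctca

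Searched were the STAT-type motif TTCNNNGAA, the C/EBP-type motif TTNNGCAA, an interferon-response motif and the NF-kB consensus, on both strands. C/EBP-type matches stood in 3 of the 6 promoters, in C1s1, in C3 (bases 45 to 38 before the start) and in Lcn2 (216 to 209 before the start), against 9.55% of 27025 mouse promoters. Serpina3g held the only NF-kB match of the 6 (85 to 76 before the start; 3.75% of all promoters) and the only STAT-type match (33 to 25 before the start; 7.18% of all promoters). The interferon-response motif stood in 0 of the 6 and in 3.04% of all promoters. The capitals do not overlap. A match is a description of the letters and no evidence of binding.

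C1r and C1s start the classical branch. C1s1 had a level of 66.0 in IFNg, 37.9 in aPD-1+CD8, 85.4 in aPD-1 and 37.4 in IgG cultures, and C1ra had 30.5, 21.8, 30.4 and 23.9 in the same order of groups. The level of C1s1 was thus near 38 in both aPD-1+CD8 and IgG cultures and 2.28-fold as high in aPD-1 as in IgG cultures. C1s1 rose by 0.99 ± 0.28 (SE) in log2 in the authors' deposited aPD-1 v IgG table (adjusted p = 0.00410, DESeq2). It was at -1.02 ± 0.29 in the authors' deposited aPD-1+CD8 v aPD-1 table (adjusted p = 0.00575). Set against the observed spread of all scores, these p-values became 0.0767 and 0.0604, so both calls were lost there. C1ra did not pass in any comparison: it was at 0.25 ± 0.34 in aPD-1 v IgG (adjusted p = 0.698) and at 0.19 ± 0.28 in IFNg v IgG (adjusted p = 0.922) in the authors' deposited tables. Both genes have close copies in the mouse. The longest C1ra and C1rb transcripts were 98.1% identical over 2427 aligned bases, and 48.0% of the stretches of 50 bases in C1ra also stood in C1rb. For C1s1 and C1s2 these values were 96.2% and 24.3%. The sources used here do not give how reads from such copies were counted.

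C4b encodes the complement component cut by C1s. Its level was 22.9 in IFNg, 2.81 in aPD-1+CD8, 35.1 in aPD-1 and 0.732 in IgG cultures. It was therefore high under interferon-gamma and under PD-1 antibody alone, and low in the other groups. C4b rose by 1.39 ± 0.27 in log2 in the authors' deposited IFNg v IgG table (adjusted p = 3.13e-05, DESeq2) and by 2.79 ± 0.40 in that of aPD-1 v IgG (adjusted p = 1.53e-10). It was at -2.21 ± 0.41 in the authors' deposited aPD-1+CD8 v aPD-1 table (adjusted p = 2.37e-06). Between IFNg and aPD-1 it was at -0.53 ± 0.38 (adjusted p = 0.417) in the authors' deposited table, which did not pass. No fold over IgG is given, because the IgG level corresponds to under 3 reads over the group. C4a, the neighbouring copy of C4b, had levels of 2.52, 2.91, 5.30 and 2.22 in IFNg, aPD-1+CD8, aPD-1 and IgG cultures and did not pass in any comparison. How alike the C4b and C4a transcripts are was not measured here, and reads may have been split between them.

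C3 was the most counted member. Its level was 158 in IFNg, 95.3 in aPD-1+CD8, 639 in aPD-1 and 97.2 in IgG cultures. Only the aPD-1 level stood far from the rest, at 6.57-fold the IgG level, while the aPD-1+CD8 level was 0.980-fold that of IgG. C3 rose by 2.55 ± 0.18 in log2 in the authors' deposited aPD-1 v IgG table (adjusted p = 2.38e-42, DESeq2). With the CD8 antibody added it was at -2.51 ± 0.25 against aPD-1 in the authors' deposited table (adjusted p = 2.43e-21). In IFNg v IgG the value was 0.44 ± 0.27 (adjusted p = 0.578) in the authors' deposited table. IFNg cultures lay below aPD-1 cultures, at -1.52 ± 0.44 in the authors' deposited IFNg v aPD-1 table (adjusted p = 0.00578). That SE is more than double the one in aPD-1 v IgG, and the call was lost against the observed spread of scores (adjusted p = 0.0651). Per length of the longest annotated transcript, C3 had 124 normalized counts per kb in aPD-1 cultures, C1s1 29.0, Lcn2 20.1 and Serping1 1.52, although capture efficiency, which differs between genes, also sets such levels.

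Cfb, the protease of the alternative branch, was low throughout. Its level was 15.1 in IFNg, 2.61 in aPD-1+CD8, 9.07 in aPD-1 and 2.59 in IgG cultures. The levels were higher in IFNg and aPD-1 than in the other groups, at 5.83-fold and 3.50-fold the IgG level, but none of these differences passed. The authors' deposited table of IFNg v IgG gave 0.76 ± 0.26 (adjusted p = 0.0828), and that of aPD-1 v IgG 0.82 ± 0.41 (adjusted p = 0.173). Serping1, the gene of the inhibitor, had a level of 4.50 in IFNg, 0.01 in aPD-1+CD8, 2.69 in aPD-1 and 0.00 in IgG cultures, solved from 4 tables. Reads of Serping1 thus came almost wholly from the IFNg and aPD-1 cultures, in numbers too low for a call. The authors' deposited tables give it no adjusted p in IFNg v IgG (0.36 ± 0.18) or in aPD-1 v IgG (0.58 ± 0.32), and in IFNg v aPD-1 it did not pass (0.28 ± 0.50, adjusted p = 0.804).

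**Figure D2:**
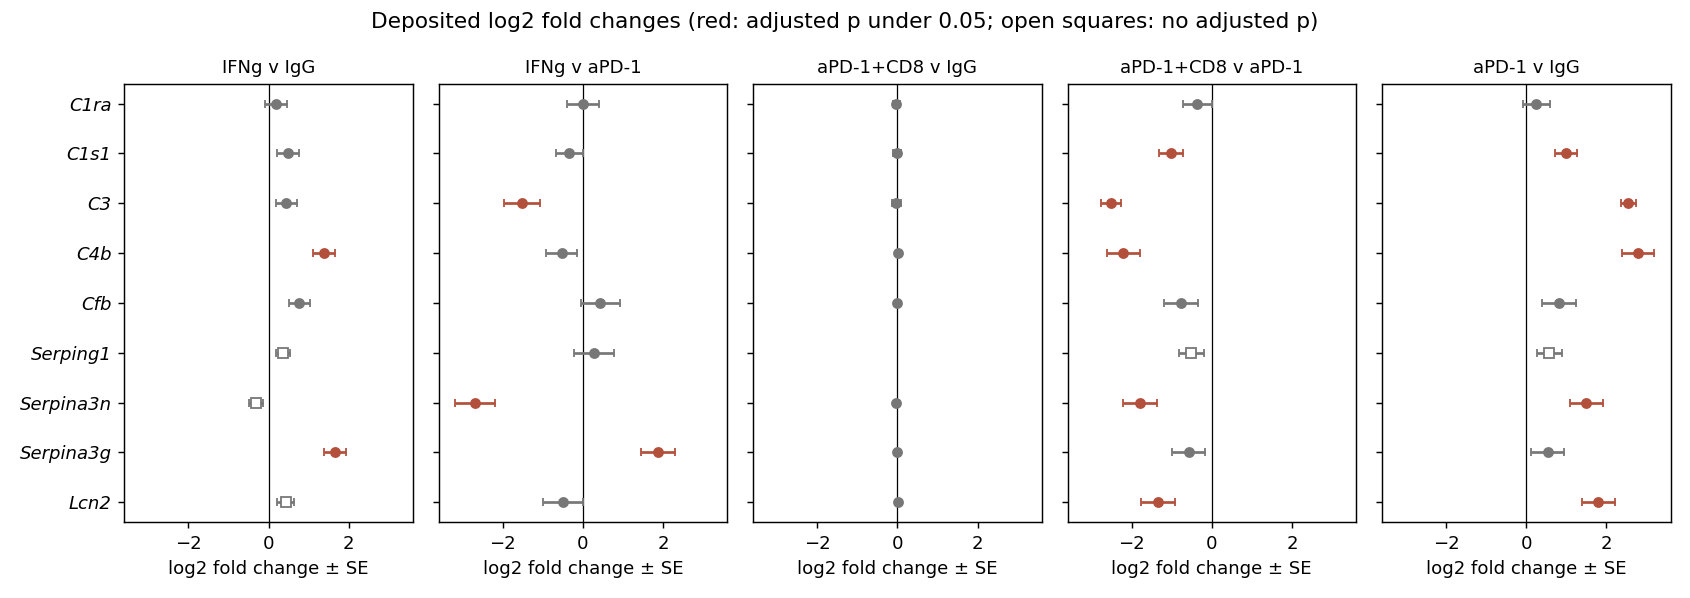
Points are the deposited log2 fold changes of the 9 genes (vertical axis) in the 5 comparisons (panels, first named group over second), with bars of 1 SE; red points passed an adjusted p under 0.05 and open squares have no adjusted p. Serpina3n and Serpina3g lie on opposite sides of 0 in IFNg v aPD-1, at -2.70 and 1.88, and every point of aPD-1+CD8 v IgG lies at 0 with a small SE.

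The 2 related serpins responded to different treatments. Serpina3n, which encodes a secreted protease inhibitor, had a level of 0.04 in IFNg, 1.18 in aPD-1+CD8, 20.2 in aPD-1 and 3.52 in IgG cultures. Serpina3g, whose product is an intracellular inhibitor that can block cathepsins, had 35.0 in IFNg, 2.08 in aPD-1+CD8, 6.20 in aPD-1 and 2.41 in IgG cultures. Serpina3n was thus counted mainly in aPD-1 cultures and hardly at all in IFNg cultures, and Serpina3g mainly in IFNg cultures. Serpina3n rose by 1.50 ± 0.41 in log2 in the authors' deposited aPD-1 v IgG table (adjusted p = 0.00222, DESeq2), a call lost against the observed spread of scores (adjusted p = 0.0559). It was at -1.80 ± 0.43 in the authors' deposited aPD-1+CD8 v aPD-1 table (adjusted p = 0.000449). Serpina3g rose by 1.66 ± 0.28 in the authors' deposited IFNg v IgG table (adjusted p = 3.23e-07), with a level 14.5-fold that of IgG. Its value in aPD-1 v IgG was 0.54 ± 0.41 in the authors' deposited table (adjusted p = 0.424). The direct comparison of IFNg with aPD-1 passed for both, at -2.70 ± 0.50 for Serpina3n (adjusted p = 2.30e-06) and at 1.88 ± 0.43 for Serpina3g (adjusted p = 0.000198) in the authors' deposited table.

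In IFNg v IgG, Serpina3n was at -0.32 ± 0.17 in the authors' deposited table, with a mean count of 1.73 and no adjusted p. The longest transcripts of Serpina3g and Serpina3n were 84.1% identical over 1721 aligned bases, and 2.91% of the stretches of 50 bases were shared. Serpina3f, the copy closest to Serpina3g at 90.1% identity with 6.33% of such stretches shared, was far higher in IFNg cultures too. It was at 2.74 ± 0.28 in IFNg v IgG (adjusted p = 4.48e-20) and at 4.57 ± 0.46 in IFNg v aPD-1 (adjusted p = 5.56e-21) in the authors' deposited tables, with mean counts of 44.8 and 43.6. The authors' deposited comparisons without IFNg cultures do not list Serpina3f, so its level per group was not solved. The smallest mean counts listed in those comparisons were 0.111 to 0.127. If unlisted genes had no reads there, the reads of Serpina3f came from the IFNg cultures only.

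Lcn2, the lipocalin, had a level of 10.5 in IFNg, 3.32 in aPD-1+CD8, 18.4 in aPD-1 and 1.34 in IgG cultures. The aPD-1 level was the highest and the IgG level the lowest. Lcn2 rose by 1.80 ± 0.41 in log2 in the authors' deposited aPD-1 v IgG table (adjusted p = 0.000193, DESeq2). It was at -1.34 ± 0.42 in that of aPD-1+CD8 v aPD-1 (adjusted p = 0.0149), which was lost at an adjusted p of 0.01 and against the observed spread of scores (adjusted p = 0.108). In the authors' deposited IFNg v IgG table its p-value is empty beside a fold change of 0.42 ± 0.21, the mark DESeq2 leaves where at least 1 library has an outlying count, so the level of Lcn2 may rest on few libraries. IFNg v aPD-1 gave -0.49 ± 0.50 (adjusted p = 0.612) in the authors' deposited table. Slc22a17, which encodes a receptor of lipocalin-2, had a level of at most 3.72 in any group, and Mmp9, whose protease binds lipocalin-2, was at -0.95 ± 0.24 in IFNg v aPD-1 (adjusted p = 0.000817) in the authors' deposited table.

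The comparison of aPD-1+CD8 with IgG asked whether the cultures given both antibodies differed from control. Levels of C3, C1s1, Cfb, C1ra and Serpina3g in aPD-1+CD8 cultures were between 0.863-fold and 1.01-fold those in IgG cultures. C4b at 2.81 against 0.732, Lcn2 at 3.32 against 1.34 and Serpina3n at 1.18 against 3.52 rest on few reads. The deposited log2 fold changes of the 8 members ran from -0.03 to 0.03 in the authors' deposited table, but this table was the most strongly shrunken. Over 2559 well counted genes the deposited values had a slope of 0.621 on the ratio of levels in aPD-1+CD8 v IgG, 0.836 in IFNg v IgG and 0.958 in aPD-1 v IgG. The small SE of this comparison, 0.0289 to 0.102 for the members, therefore does not measure how far levels could differ.

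**Figure D3:**
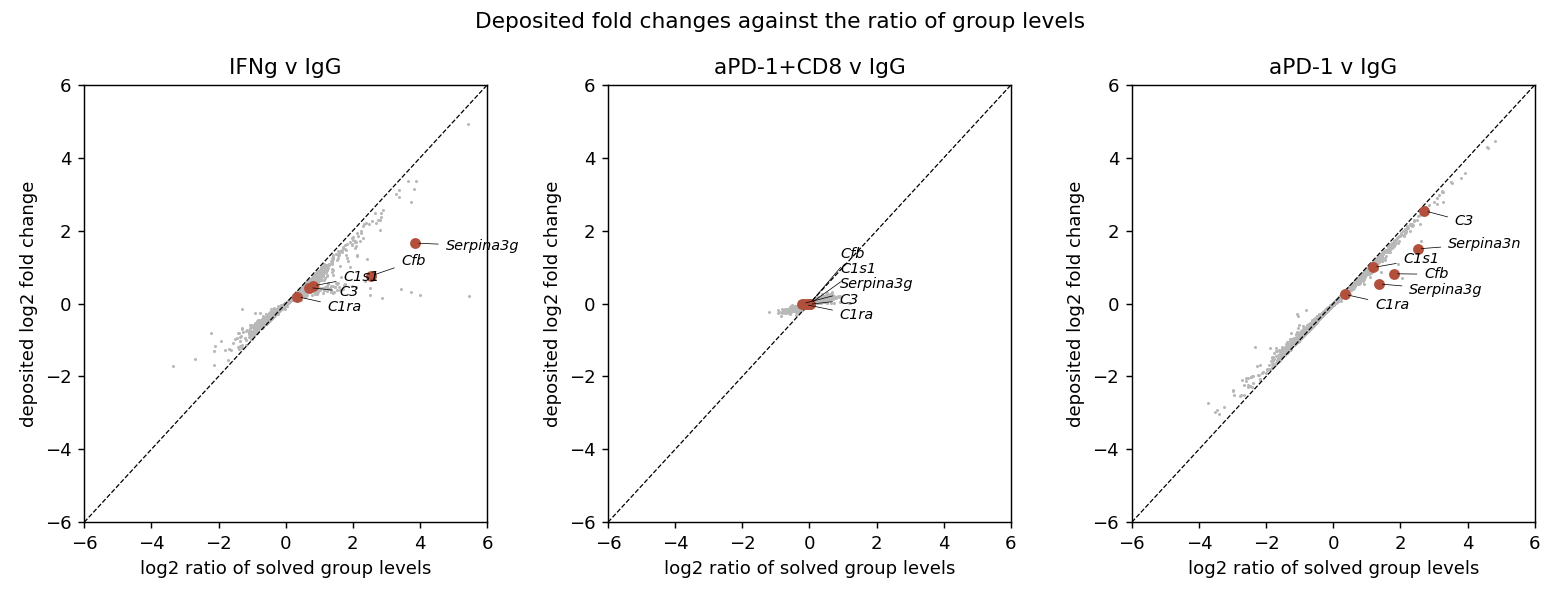
Each grey point is a gene whose mean count reached 20 throughout, by its log2 ratio of solved levels (horizontal) and its deposited log2 fold change (vertical) in the 3 comparisons with IgG; the dashed line marks equality and red points are members with a level of at least 2 in both groups. Serpina3g lies at a ratio of 3.86 against a deposited 1.66 in IFNg v IgG, whereas C3 lies at 2.72 against 2.55 in aPD-1 v IgG.

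Other complement genes were followed in lists by role. In the classical and lectin list 1 of 7 tested rose and 0 fell in aPD-1 v IgG, where 18.5% of all genes changed: Masp1, a protease of the lectin branch, at 1.72 ± 0.39 (adjusted p = 0.000151) in the authors' deposited table, with levels of 33.4 in aPD-1 and 5.11 in IgG cultures. The median log2 change over the 7 was -0.29, against 0.01 over all genes tested. Masp1 was at -2.21 ± 0.41 in aPD-1+CD8 v aPD-1 in the authors' deposited table (adjusted p = 3.17e-06), the 1 of 7 that fell there, with 0 higher. In IFNg v aPD-1 2 of 7 were higher and 1 lower, beside 15.5% of all genes: C2, the partner of C4 in the C3-cutting enzyme, at 1.54 ± 0.48 (adjusted p = 0.0118) and C1qc, a chain of the C1q sensor, at 1.44 ± 0.49 (adjusted p = 0.0264), against Masp1 at -1.47 ± 0.42 (adjusted p = 0.00554), in the authors' deposited table. The other C1q chains did not pass in the authors' deposited IFNg v aPD-1 table. C1qa was at -0.004 ± 0.51 (adjusted p = 0.998) and C1qb at 0.82 ± 0.49 (adjusted p = 0.291). Of the list 0 of 5 passed in IFNg v IgG in either direction.

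Of the alternative and terminal pathway genes 0 of 3 tested passed in aPD-1 v IgG, 0 of 2 in aPD-1+CD8 v aPD-1, 0 of 3 in IFNg v aPD-1 and 0 of 2 in IFNg v IgG. Among them Cfp, properdin, which stabilises the alternative C3-cutting enzyme, had levels of 12.7, 13.8, 16.3 and 18.3 in IFNg, aPD-1+CD8, aPD-1 and IgG cultures. Of the complement regulators 0 of 4 rose and 1 fell in aPD-1 v IgG, where 8.50% of all genes rose and 10.0% fell. The regulator that fell was C1qbp, a mostly mitochondrial protein that can bind C1q, at -0.92 ± 0.16 (adjusted p = 6.68e-07), while Clu, clusterin, was at 0.07 ± 0.28 (adjusted p = 0.912), in the authors' deposited table. C1qbp was higher in both comparisons over aPD-1, at 0.78 ± 0.22 in IFNg v aPD-1 (adjusted p = 0.00361) and at 0.92 ± 0.20 in aPD-1+CD8 v aPD-1 (adjusted p = 6.94e-05) in the authors' deposited tables. With so few genes tested in each list, these counts do not set complement genes apart from the share of all genes that changed. Of the receptors 0 of 5 rose and 1 fell in aPD-1 v IgG, beside 8.50% and 10.0% of all genes, which does not set them apart either. The 1 that fell was Itgax, a chain of an integrin that binds cleaved C3, at -1.25 ± 0.41 (adjusted p = 0.0173). C3ar1, the receptor of the C3a fragment, was at -0.54 ± 0.38 (adjusted p = 0.387) in the authors' deposited aPD-1 v IgG table.

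Other acute-phase genes had a median log2 change of 0.41 in aPD-1 v IgG, against 0.01 over all genes tested. Of 11 tested 0 fell and 3 rose, where 10.0% of all genes fell and 8.50% rose. They were Hp, which encodes the haemoglobin-binding haptoglobin, at 2.10 ± 0.42 (adjusted p = 9.47e-06), Steap4, a metalloreductase, at 1.92 ± 0.42 (adjusted p = 6.75e-05) and Cd14, a co-receptor for lipopolysaccharide, at 1.08 ± 0.37 (adjusted p = 0.0239), in the authors' deposited table. Hp had levels of 0.05 in IFNg, 0.42 in aPD-1+CD8, 17.7 in aPD-1 and 0.26 in IgG cultures, a pattern that was also that of Steap4 (0.46, 0.03, 15.1 and 0.27). Saa3, serum amyloid A3, had 10.6, 5.89, 147 and 2.19 in the same order. Its p in aPD-1 v IgG is empty, as for an outlying count, and it was at -3.46 ± 0.36 in aPD-1+CD8 v aPD-1 (adjusted p = 1.94e-19) and at -3.16 ± 0.39 in IFNg v aPD-1 (adjusted p = 2.47e-14) in the authors' deposited tables. In aPD-1+CD8 v aPD-1 4 of 11 were lower and 0 higher, beside 6.94% and 7.82% of all genes. In IFNg v aPD-1 4 of 13 were lower and 1 higher, beside 7.13% and 8.39% of all genes. The 1 that was higher was Cp, the copper carrier ceruloplasmin. In IFNg v IgG 1 of 7 fell and 0 rose, beside 1.38% and 2.73% of all genes. The 1 that fell was Lbp, the lipopolysaccharide-binding protein, at -0.97 ± 0.28 (adjusted p = 0.0169) in the authors' deposited table.

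The regulators named in the background changed in the same comparisons. Of 12 transcription factors 9 rose and 1 fell in aPD-1 v IgG, beside 8.50% and 10.0% of all genes. Their median log2 change was 1.22, against 0.01 over all genes tested. Cebpd, a C/EBP factor of the acute phase, had levels of 10.8 in IFNg, 13.5 in aPD-1+CD8, 186 in aPD-1 and 9.03 in IgG cultures, and Stat3 had 3436, 2578, 10665 and 2639. Both were thus far highest in aPD-1 cultures. Cebpd was at 3.66 ± 0.29 (adjusted p = 2.73e-33) and Stat3 at 1.92 ± 0.15 (adjusted p = 7.11e-33) in the authors' deposited aPD-1 v IgG table. Of 14 cytokine and receptor genes 7 rose and 0 fell there, with a median of 0.77. In the authors' deposited table the cytokine genes Lif and Il11 were at 3.59 ± 0.20 (adjusted p = 2.92e-70, DESeq2) and 3.62 ± 0.36 (adjusted p = 6.02e-22). Lif had levels of 769 in aPD-1 and 51.1 in IgG cultures, and Il11 had 628 and 19.3. Osm, oncostatin M, was at 2.41 ± 0.39 (adjusted p = 2.08e-08) and Osmr, its receptor, at 2.48 ± 0.24 (adjusted p = 5.95e-23) in the authors' deposited table. Il6 itself had a level of at most 2.33 in any group. In aPD-1+CD8 v aPD-1 8 of 12 factors and 6 of 14 cytokine genes were lower and 0 higher, beside 6.94% and 7.82% of all genes. In IFNg v IgG 3 of 12 factors and 2 of 14 cytokine genes rose and 0 fell, beside 2.73% and 1.38% of all genes. In IFNg v aPD-1 2 factors were higher and 7 lower, with 6 cytokine genes lower and 0 higher. Of all genes 8.39% were higher and 7.13% lower there. Whether these regulators act on the 9 genes was not tested.

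**Figure D4:**
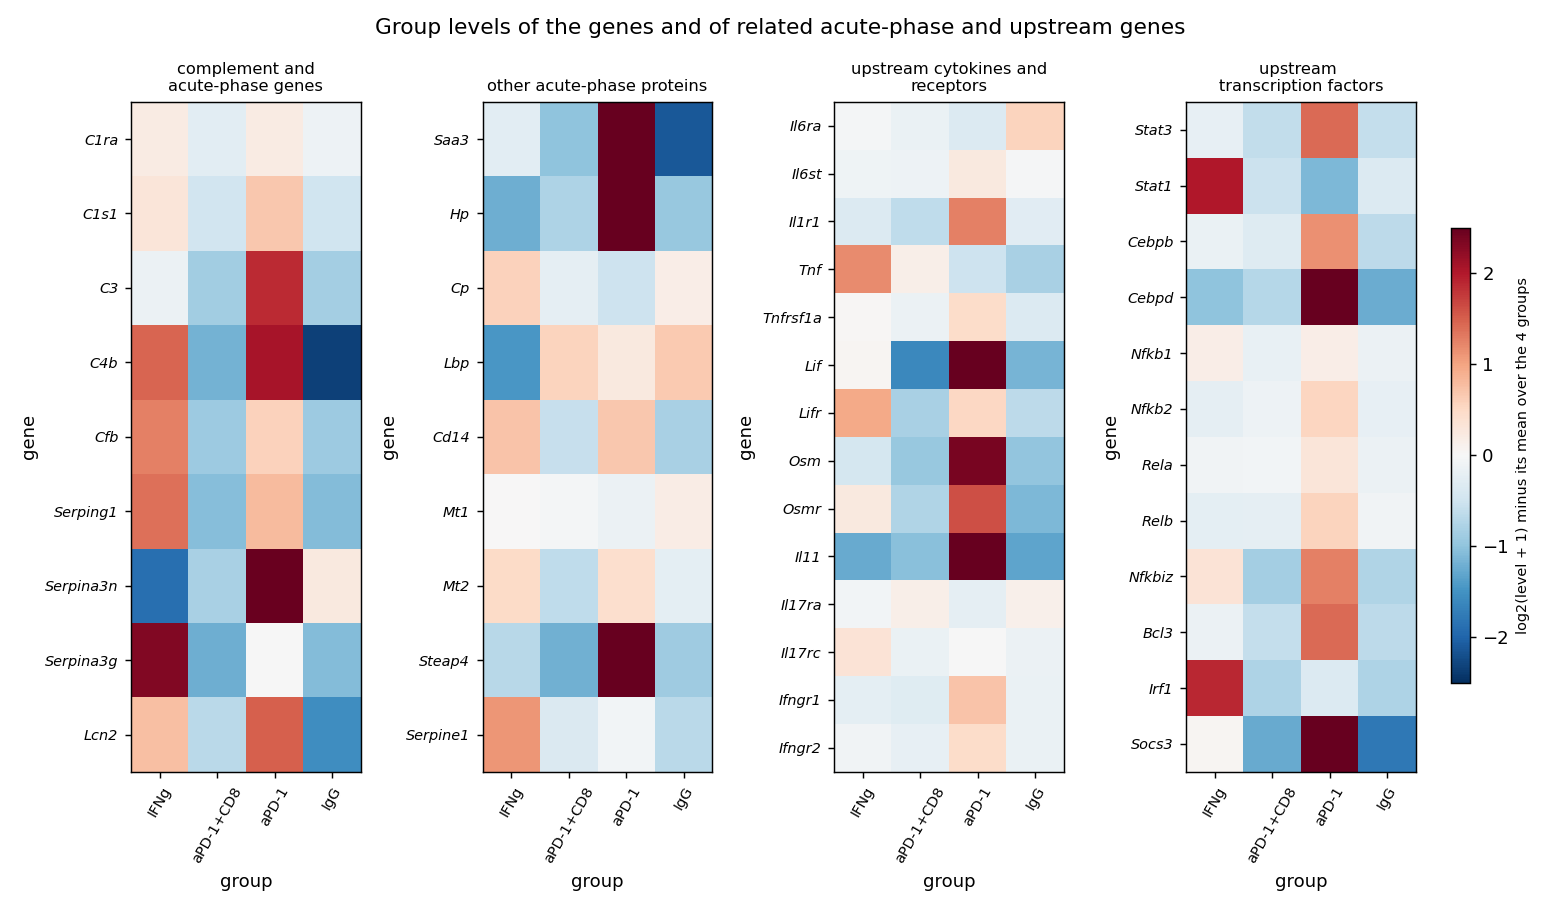
Colour shows log2(level + 1) of each gene (rows) in each group (columns) minus its mean over the 4 groups, capped at 2.5 either way, for the 9 genes and for genes of 3 related lists with a level of at least 10 in some group. C3, Serpina3n, Hp, Saa3 and Cebpd have their highest value in aPD-1 cultures, and Serpina3g in IFNg cultures.

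Markers of other cells also moved between the groups. Over 9 of 10 fibroblast markers the summed level was 2929 in IFNg, 2842 in aPD-1+CD8, 9697 in aPD-1 and 3126 in IgG cultures. Of 7 tested 4 rose and 0 fell in aPD-1 v IgG, beside 8.50% and 10.0% of all genes. Most of the aPD-1 sum was Col1a1, Col3a1 and Dcn, at 2302, 2804 and 2900. Fap and Pdgfrb were lower in aPD-1 than in IgG cultures, at 27.1 against 40.3 and 522 against 635, and did not pass. Over 12 of 14 macrophage markers the summed level in IFNg, aPD-1+CD8, aPD-1 and IgG cultures was 620, 388, 307 and 419. In aPD-1 v IgG 1 of 10 was higher and 1 lower. Most of the IFNg sum was Csf1r, at 366 in IFNg cultures with its p empty as for an outlying count. Without Csf1r, a sum chosen after seeing the data, it was 255, 359, 288 and 392. Of 9 macrophage markers tested in IFNg v IgG 0 rose and 2 fell, beside 2.73% and 1.38% of all genes. Those that fell were Mrc1 at -1.29 ± 0.28 (adjusted p = 0.000201) and Mertk at -0.86 ± 0.19 (adjusted p = 0.000338), in the authors' deposited table. Over 4 of 12 neutrophil markers the summed level was 6.14, 1.78, 27.4 and 3.77 in the same order of groups. Most of the aPD-1 sum was Hdc, which was at 23.6 in aPD-1 cultures, and S100a8 had 2.87 there. Over 2 of 8 hepatocyte markers it was at most 4.97 and over 3 of 8 T cell markers at most 11.2 in any group. Epithelial markers were nearly absent: over 5 of 7 the sum was 3.43 in IFNg, 1.73 in aPD-1+CD8, 2.23 in aPD-1 and 15.4 in IgG cultures. Of 2 tested in aPD-1 v IgG 0 rose and 1 fell, beside 8.50% and 10.0% of all genes. Krt19 fell, at -1.07 ± 0.38 (adjusted p = 0.0284, DESeq2) in the authors' deposited table, with levels of 0.01 in aPD-1 and 7.36 in IgG cultures. Krt8 had a level of at most 3.92. The part of all these cells in the levels of the 9 genes was not tested, and in such mixed cultures fewer cells of a type and less RNA per cell cannot be told apart.

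Among 5706 well counted genes the one whose 5 deposited fold changes lay closest to those of a member was named by Euclidean distance, over values that share samples. For Serpina3g it was Tapbp, which helps load peptides on MHC class I (distance 0.47), and for Serpina3n Col5a1, a collagen chain (0.50). For C3 it was the AP-1 factor Fosl2 (0.51), for C1s1 Parp8 (0.11), for C1ra the acetyl-CoA transporter Slc33a1 (0.06) and for Cfb the histone gene Hist1h3i (0.33). For Lcn2 it was the zinc transporter Slc39a13 (0.55), and for C4b, which had no gene as near, Il13ra1, a receptor of IL-13 (1.02). Deposited fold changes are shrunken more for members with few counts, so a small distance need not mean alike ratios of levels. By level Cfb was 5.83-fold as high in IFNg as in IgG cultures, while Hist1h3i had 346 and 182. The better counted C1s1 was 1.76-fold as high, and Parp8 had 871 and 562.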

How the data were processed

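RNA from 12 cultures was sequenced after exome capture of 250 ng of total RNA, per the labels' protocols. The deposited tables were made by the authors with DESeq2 on mm9, per the submitters' processing notes, while the sources used here give no aligner, counter, annotation or strand setting. Each of the 5 deposited tables holds, per the file headers, a mean normalized count (a signal over the libraries of both groups), a log2 fold change with its SE, the score of the Wald test, and p-values before and after adjustment. They hold 0 columns of single samples, so depth per library is unknown, and the deposited SE gives the precision. The mean counts summed to between 10292900 and 11590700.

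A gene changed at a deposited adjusted p under 0.05. Group levels were solved by least squares (numpy 2.4.6) from the 5 mean counts after scaling the tables on 660 genes with mean counts of at least 100 and log2 changes under 0.15. This scaling was added after the data showed that the tables differed in scale. The solver and the adjustment were tested on simulated data. Transcript identity came from GENCODE M21. The rule for named genes allowed all 9 members, up to 6 passing genes per related list and comparison, genes of a set role, and the nearest gene to each member. Members and lists were chosen with earlier results of these data known. Alternatives were other thresholds, filters, a null from the observed spread of scores and other solutions of the levels.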

Additional observations from a re-analysis of the deposited data

How the results depend on the processing

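Counts of members called kept within 1.5 times of those reported under an adjusted p under 0.01, a log2 change of at least 1 and no filter on the mean count, in all 5 comparisons. With a mean count of at least 10 the members lower were 1 in place of 2 in IFNg v aPD-1 and 3 in place of 5 in aPD-1+CD8 v aPD-1, since that filter leaves Serpina3n and Lcn2 out. Against the observed spread of the Wald scores (robust SD 1.31 in aPD-1 v IgG), 3 in place of 5 were higher in aPD-1 v IgG (C3, C4b and Lcn2), 3 in place of 5 were lower in aPD-1+CD8 v aPD-1 (C3, C4b and Serpina3n) and 1 in place of 2 was lower in IFNg v aPD-1 (Serpina3n). Of 31 log2 ratios of levels, 0 moved by more than the deposited SE with other scaling genes, 14 differed by more from the deposited, shrunken fold changes and 16 without scaling between tables. No called ratio reversed. Without scaling the median gap between ratio and deposited fold change over 2559 genes was 0.416 in aPD-1+CD8 v IgG, against 0.0173 with it. No paired analysis was possible because the tables hold no single samples, and for the same reason no library could be left out. Depth limits Serping1, Cfb, Serpina3n, Serpina3g and Lcn2, whose mean counts were under 10 in most tables.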

Other observations

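Among proteases that the serpins are known to meet and partners of lipocalin-2, 0 of 5 tested passed in aPD-1 v IgG (18.5% of all genes), 0 of 4 in IFNg v IgG (4.10%) and 0 of 4 in aPD-1+CD8 v aPD-1 (14.8%). In IFNg v aPD-1 1 of 5 passed (15.5% of all genes), Mmp9, with levels of 540 in IFNg and 1085 in aPD-1 cultures. So few genes do not set this list apart from all genes. Ctsb, cathepsin B, had levels of 588 in IFNg, 669 in aPD-1+CD8, 622 in aPD-1 and 642 in IgG cultures, and Ctsl, cathepsin L, had 837, 837, 882 and 804. Both were thus far more counted than Serpina3g, at similar levels in every group.

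Not every acute-phase gene was highest in aPD-1 cultures. Cp had levels of 75.3 in IFNg, 42.4 in aPD-1+CD8, 34.9 in aPD-1 and 55.9 in IgG cultures, and the authors' deposited IFNg v aPD-1 table gave 1.01 ± 0.31 (adjusted p = 0.0118, DESeq2). Mt2, a metallothionein, had 336, 155, 324 and 204, and was at -0.998 ± 0.213 in the authors' deposited aPD-1+CD8 v aPD-1 table (adjusted p = 6.99e-05). Lbp had 6.38, 28.8, 23.0 and 30.6, and was at -1.33 ± 0.45 in the authors' deposited IFNg v aPD-1 table (adjusted p = 0.025).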
